A study of Mus musculus with 4 samples.

Results

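The genes described here are 39 imprinted genes and genes that lie in imprinted clusters of the mouse genome, at 16 loci. They were taken by name from a list that was drawn up with earlier results of these data known. Of the 41543 gene symbols counted, 38 matched the list exactly, and Nespas was found under its other symbol, Gnasas1. The RNA came from E14TG2a, an embryonic stem (ES) cell line of the mouse kept on gelatin in serum medium with the cytokine LIF. The groups were control cells and cells made by CRISPR/Cas9 editing as a knockout (KO) of KAT6A, a histone acetyltransferase. Each group had 2 libraries, called control 1, control 2, KO 1 and KO 2 after the replicate numbers in their labels. No label names a clone or a culture for a library, so the spread behind the p-values is that between these 4 samples and may be technical.

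Imprinted genes are expressed mainly from the copy inherited from one parent. In the usual case an imprinting control region carries DNA methylation on one parental copy, and the long noncoding RNAs, insulators and promoters that depend on it set the expression of several neighbouring genes at once. Many imprinted genes act in growth of the embryo and the placenta. The counts do not separate the parental copies, and the usual active copy named for each gene below is general background. By its title, the series asks how KAT6A comes to sit at CpG islands that lack methylation, which is why the CpG content of some promoters is shown.

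Of the 38 members tested, 6 fell in the KO cells and 2 rose, so most of the imprinted genes were not called in either direction. The falls were H19, Peg13, Peg10, Grb10, Commd1 and Sfmbt2, and the rises were Trappc9 and Cd81. A gene is said to have risen or fallen, or to be called, where the edgeR adjusted p was under 0.05 over all 16112 genes tested. Among all tested genes 5.76% were called higher and 8.57% were called lower. The members' share of rises was 5.26% and their share of falls 15.8%. On the log2 scale the members' median change from control to KO was -0.19, against 0.01 over all tested genes. Without adjustment 18 members had a p under 0.05. The only member not tested was Kcnk9, which had 1 to 4 counts per library. The 8 called members lay at 7 of the 16 loci.

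**Figure D1:**
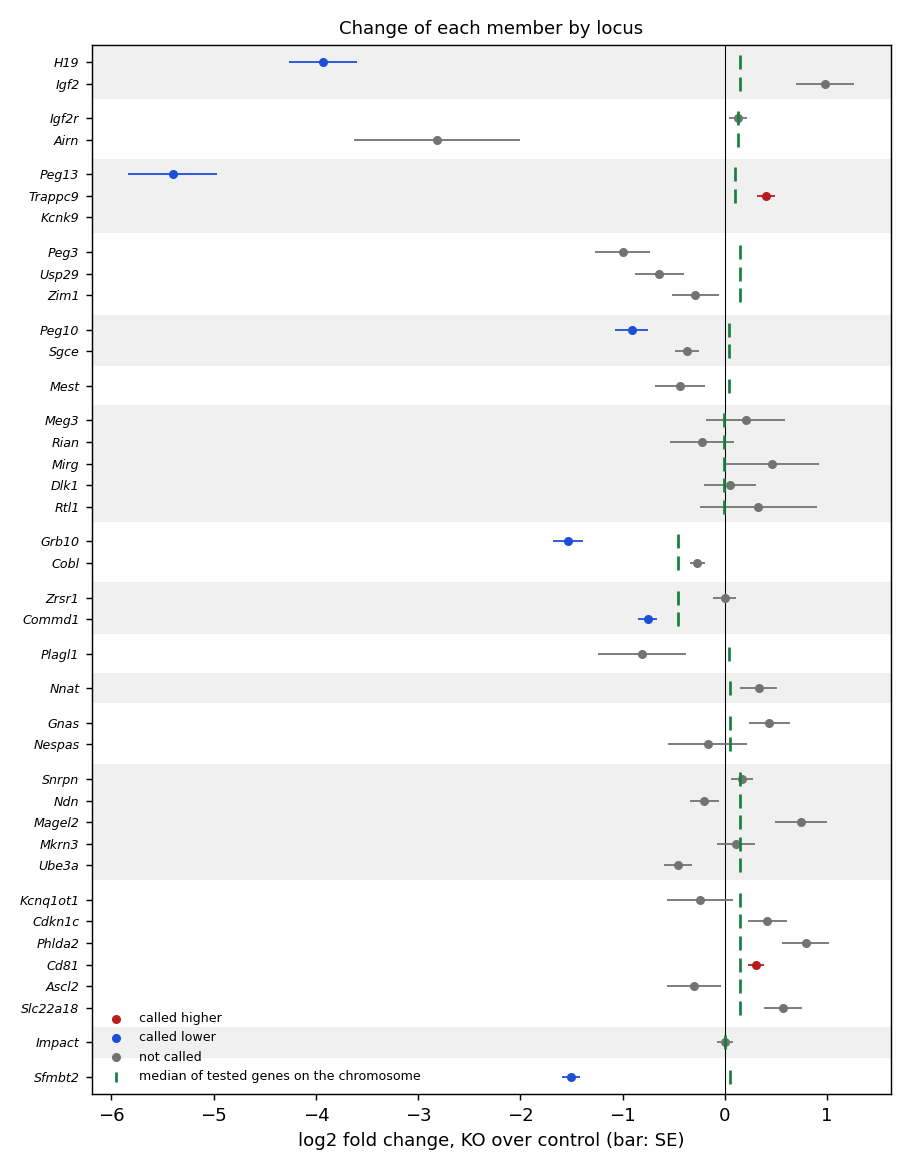
Log2 fold change, KO over control, of the 38 tested members with its standard error (bars), grouped by locus (shaded bands). Green ticks give the median of all tested genes on the member's chromosome. Peg13 (-5.40) and H19 (-3.93) lie farthest from 0, and the ticks of the chromosome 11 genes Grb10, Cobl, Zrsr1 and Commd1 stand at -0.45.

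Levels are given as reads of a gene in relation to the scaled total of the library, in CPM. The libraries of each group were first compared gene by gene. Both KO libraries lay below both controls for 16 members (32.8% of all tested genes did so) and above both controls for 11 members (31.5% of all tested genes). For the other 11 the groups overlapped. The controls lay close together, with no member differing over 1.41-fold between them. The KO libraries were more than 2-fold apart for 9 members, which are H19, Airn, Peg13, Meg3, Rian, Mirg, Rtl1, Plagl1 and Nespas. Of these, Peg13 had 1 and 3 counts in KO 1 and KO 2, and Airn 0 and 4. Meg3, Rian, Mirg and Rtl1 lie at 1 locus. Over all tested genes 5.73% were that far apart between the KO libraries and 1.70% between the controls. KO 1 had the lower level of the pair in 29 of the 38 tested members and in all 6 that fell, against 49.6% of all tested genes. The gap was small for Sfmbt2 and Commd1, where KO 2 had 1.02 and 1.05 times the level of KO 1.

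**Figure D2:**
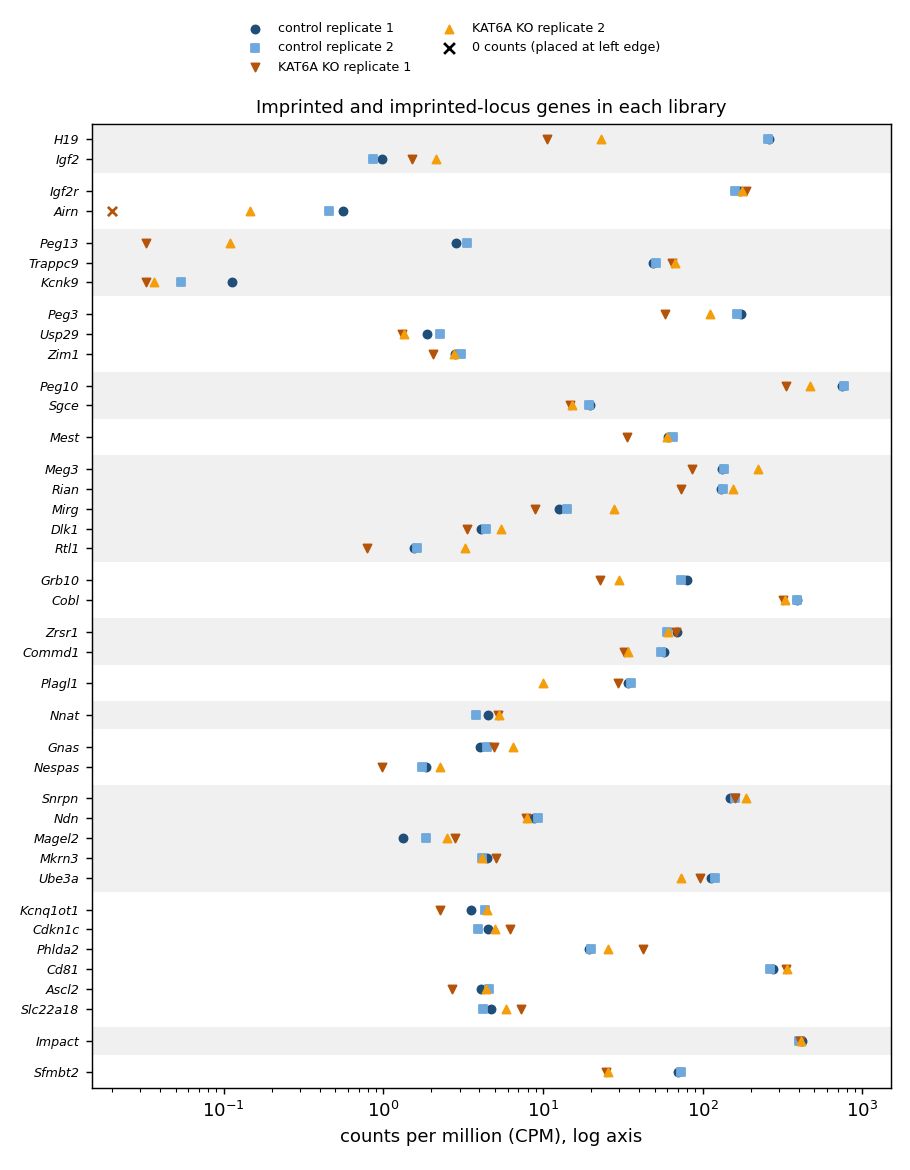
CPM (log axis) of all 39 members in each of the 4 libraries, grouped by locus. The control symbols nearly coincide for most genes, while those of the KO libraries separate widely at the Dlk1-Meg3 locus, and the cross marks the library with 0 counts of Airn.

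When grouped by the copy listed as usually active, none of the 21 paternally expressed members rose and 3 fell (Peg13, Peg10 and Sfmbt2). Their median log2 fold change was -0.20. Among all tested genes 5.76% rose and 8.57% fell. At an unadjusted p under 0.05 edgeR had 2 of the 21 higher (Igf2 and Magel2) and 7 lower. DESeq2 called none of them higher and 3 lower. Of the 16 tested members listed as maternally expressed, 2 rose (Trappc9 and Cd81) and 3 fell (H19, Grb10 and Commd1), with a median of -0.05. For some of these, as for Ube3a in neurons, the listed copy holds only in certain tissues. Which copy was active in these ES cells was not measured. Gnas, whose active copy depends on the isoform, was not called. Whether the groups by parental copy differ was not tested.

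Per kilobase of exon, the highest control level belonged to Peg10 (113 ± 2.60 CPM per kb, SD, n = 2), followed by H19 (105 ± 0.762), Cd81 (94.1 ± 2.78), Impact (79.8 ± 2.36) and Snrpn (71.3 ± 3.32). The lowest tested level was that of Kcnq1ot1 (0.0424 ± 0.0061). In the KO cells the mean level of H19 was 6.88 CPM per kb, below those of Igf2r (19.5) and Phlda2 (30.3), which it exceeded in the controls.

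Total counts ran from 27494041 to 37354623 per library. Kat6a itself had 145 and 143 CPM in the controls, 242 in the library labelled KO 1 and 86.4 in the library labelled KO 2. These levels are 1.69 and 0.601 times the control mean. Where the gene was edited is not known here, so the counts do not check the labels and each direction rests on them. All 10 ES cell markers were present in every library, at 218 to 1460 CPM, and 3 of them rose (Esrrb, Tfcp2l1 and Dppa5a). Markers of primitive endoderm, an extraembryonic lineage that can arise in ES cultures, moved the other way. Of 12 listed, 7 fell among the 11 tested. The 12 summed to 3895 and 3720 CPM in the controls, 869 in KO 1 and 1704 in KO 2, mostly from Col4a1, Sparc and Lama1. Trophoblast markers summed to 276 CPM in each control, 105 in KO 1 and 158 in KO 2, mostly from the keratin genes Krt18 and Krt8. Of the trophoblast markers 6 of 9 tested fell, while the placental markers Tpbpa and Psg17 were at 0 throughout. Of the 7 tested fibroblast and mesoderm markers none was called by edgeR or DESeq2 (1 was higher at an unadjusted edgeR p under 0.05), and Lum was at 0. Of 6 tested neural markers 3 rose and 1 fell. In bulk RNA, fewer cells of a type and less RNA per cell cannot be told apart.

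H19, a maternally expressed noncoding RNA, fell strongly while Igf2, its paternally expressed neighbour, was higher without passing the test. H19 lies at chr7:142575529-142578143 on the minus strand (GRCm38, GENCODE M21), and Igf2, the gene of a fetal growth factor, at chr7:142650766-142666816 on the same strand. The 2 genes share enhancers and an imprinting control region bound by the insulator protein CTCF. H19 had 259 and 257 CPM in the controls, 10.6 in KO 1 and 23.2 in KO 2. Both KO libraries lay far below the controls, and KO 2 held over 2-fold more H19 than KO 1 (ratio 2.18). The fall was 15.2-fold (log2 fold change -3.93 ± 0.33 SE, edgeR adjusted p = 0.0056). With single libraries left out it ran from -4.60 to -3.47, and H19 was no longer called once genes of low counts were kept in the test (-3.95, edgeR adjusted p = 0.083).

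Igf2 was scarcely expressed, with 0.985 and 0.864 CPM in the controls, 1.51 in KO 1 and 2.15 in KO 2. The KO libraries were above the controls, by a log2 fold change of 0.98 ± 0.29 (SE, edgeR adjusted p = 0.068). With no low-count filter Igf2 was called (edgeR adjusted p = 0.047), while DESeq2 did not call it (adjusted p = 0.171). Of the exon bases of Igf2, 62.8% are shared with another gene model on the same strand, so its counts are uncertain. H19 shares 3.41% of its exon bases in this way. Within 250 kb of the pair 6 other genes were tested and none was called (2 were higher at an unadjusted edgeR p under 0.05, and DESeq2 called none). The nearest, Igf2os, which is antisense to Igf2, had a log2 fold change of 1.15 with an edgeR adjusted p of 0.063. The summed primitive endoderm markers were 0.228 (KO 1) and 0.447 (KO 2) times the control level, and H19 was 0.0413 and 0.09 times. Col4a1, Lama1 and Sparc, a gene of chromosome 11, made up most of that sum. Over the 11 tested markers the median log2 ratio to the control mean was -2.34 in KO 1 and -1.01 in KO 2. KO 1 was lower than KO 2 in these markers and in H19, and the part of primitive endoderm cells in the fall of H19 was not tested.

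Peg13, a paternally expressed noncoding RNA, was almost lost, and Trappc9, the gene in whose intron it lies, rose slightly. Peg13 lies at chr15:72805600-72810324 within Trappc9 (chr15:72589620-73061204), which encodes a subunit of a vesicle tethering complex, and both are on the minus strand. Kcnk9, the gene of a potassium channel that is expressed from the maternal copy in brain, lies beyond the 3′ end of Trappc9, at chr15:72501089-72546340. Peg13 had 101 and 123 counts in the controls, 1 in KO 1 and 3 in KO 2. The controls were 44.7 times higher over pooled counts scaled to library size (95% exact binomial interval 17.2 to 165), and the edgeR adjusted p was 0.0050. The fitted log2 fold change of Peg13 was -5.40, and it was -4.77 without KO 1 and -6.40 without KO 2. In CPM it went from 2.84 and 3.32 to 0.0329 and 0.109, so both KO libraries were near the limit of detection.

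Trappc9 had 49.0 and 50.9 CPM in the controls, 64.6 in KO 1 and 67.1 in KO 2. The groups did not overlap, and the log2 fold change was 0.40 ± 0.09 (SE, edgeR adjusted p = 0.033). The median of chromosome 15 was 0.10. The call of Trappc9 ended with a GC-content offset, with each chromosome centred on its own median, and without either control library. Kcnk9 had 4 and 2 counts in the controls and 1 in each KO library, too few for a test. Chrac1, a histone-fold subunit of a chromatin remodelling complex that lies 29.2 kb from Trappc9, rose by 0.58 ± 0.11 (SE, edgeR adjusted p = 0.022). The other tested genes within 250 kb, Ago2 (0.06) and Ptk2 (-0.10), were not called.

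At the Igf2r locus the receptor gene was not called, and the opposing noncoding RNA, low in the controls, was near the limit of detection in the KO libraries. Igf2r (chr17:12682406-12769664, minus strand) encodes the receptor that carries IGF2 to lysosomes and is expressed from the maternal copy in most tissues. Airn (chr17:12741311-12860136, plus strand) starts inside it and silences it on the paternal copy. Igf2r had 172 and 160 CPM in the controls, 187 in KO 1 and 175 in KO 2, a log2 fold change of 0.13 ± 0.09 (SE, edgeR adjusted p = 0.344) beside a chromosome median of 0.13. Airn had 20 and 17 counts in the controls, 0 in KO 1 and 4 in KO 2. A count of 0 in KO 1 allows up to 0.0986 CPM (3 counts), against 0.563 and 0.459 CPM in the controls. Over pooled counts the controls were 7.38 times higher (95% exact binomial interval 2.65 to 28.5), and the edgeR adjusted p was 0.066. With no low-count filter Airn was called (edgeR adjusted p = 0.018). Intervals and limits of this kind cover counting error only.

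The 250 bases before the start of each transcript are shown because the CpG content of the pair differs in these stretches. Bases past the start were not counted, so the CpG content there is not described. The sequences come from RefSeq (GRCm38.p6), read 5′ to 3′ on the strand of the gene, with each CpG in capitals. The Igf2r stretch (chr17:12769707-12769956) holds 27 CpGs, and 8.56% of the 32851 promoters of the same table have at least as many. The Airn stretch (chr17:12741061-12741310) holds 2, a number reached by 81.2%.
Igf2r: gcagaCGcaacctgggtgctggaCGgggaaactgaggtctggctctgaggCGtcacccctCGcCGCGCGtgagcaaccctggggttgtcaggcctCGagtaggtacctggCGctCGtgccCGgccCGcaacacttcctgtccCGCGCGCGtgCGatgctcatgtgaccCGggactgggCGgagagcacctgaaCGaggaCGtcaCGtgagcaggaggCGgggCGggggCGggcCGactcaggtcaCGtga
Airn: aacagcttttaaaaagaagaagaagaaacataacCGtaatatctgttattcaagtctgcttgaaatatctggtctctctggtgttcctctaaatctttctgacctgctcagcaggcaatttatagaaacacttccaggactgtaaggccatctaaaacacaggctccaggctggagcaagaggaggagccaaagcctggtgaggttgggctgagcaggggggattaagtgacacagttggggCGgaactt

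Grb10 fell beyond the general lowering of its chromosome, and its neighbour Cobl was not called. All 4 members on chromosome 11 were read against that chromosome, whose 1328 tested genes had a median log2 fold change of -0.45, the lowest of any numbered chromosome, with 9 called higher and 537 lower. Grb10 (chr11:11930508-12038683, minus strand) encodes an adaptor that restrains insulin and growth factor signalling and is expressed from the maternal copy outside the brain. It had 79.3 and 72.8 CPM in the controls, 22.7 in KO 1 and 29.8 in KO 2. The groups were well apart, with a 2.90-fold fall (log2 fold change -1.54 ± 0.15 SE, edgeR adjusted p = 0.0064). This is 1.08 lower than the chromosome median (difference -1.08), and Grb10 stayed called with each chromosome centred on its median (edgeR adjusted p = 0.019).

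Cobl (chr11:12236608-12464960), which encodes an actin nucleator, had 389 and 390 CPM in the controls, 319 in KO 1 and 328 in KO 2. Its log2 fold change of -0.27 ± 0.08 (SE, edgeR adjusted p = 0.066) lies above the chromosome median by 0.19. The GC-content offset led to a call of Cobl (-0.29, edgeR adjusted p = 0.037), as did keeping genes of low counts (edgeR adjusted p = 0.049). Of 4 other tested genes within 250 kb of the pair, Fignl1, of an ATPase in DNA repair, fell (-0.83, edgeR adjusted p = 0.0083). The others were Ddc (-0.49), 1700042O10Rik (0.09) and Ikzf1 (-1.40, edgeR adjusted p = 0.059).

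The promoter stretches of Grb10 and Cobl are given because both are rich in CpG while the changes of the genes differed. For Grb10 (chr11:12037421-12037670) there are 40 CpGs, a number reached by 1.31% of all promoters, and for Cobl (chr11:12464961-12465210) 36, reached by 2.58%. CpGs are again in capitals, and each table entry is 1 of 2 starts given for the gene.
Grb10: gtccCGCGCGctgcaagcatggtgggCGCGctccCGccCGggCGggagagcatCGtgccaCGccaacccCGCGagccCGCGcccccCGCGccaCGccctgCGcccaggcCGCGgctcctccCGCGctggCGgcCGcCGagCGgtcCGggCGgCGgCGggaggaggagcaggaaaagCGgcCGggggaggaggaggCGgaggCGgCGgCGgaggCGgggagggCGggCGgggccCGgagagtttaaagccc
Cobl: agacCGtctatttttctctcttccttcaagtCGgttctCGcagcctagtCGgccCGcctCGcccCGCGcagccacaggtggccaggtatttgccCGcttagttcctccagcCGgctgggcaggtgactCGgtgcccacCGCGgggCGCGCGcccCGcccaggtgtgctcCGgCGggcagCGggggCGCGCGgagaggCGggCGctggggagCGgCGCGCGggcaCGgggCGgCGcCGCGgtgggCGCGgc

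Commd1 fell and Zrsr1, which lies in its first intron, did not pass the test. Zrsr1 (chr11:22972005-22976496, plus strand) is a paternally expressed retrogene of a splicing factor, and Commd1 (chr11:22896136-22982382, minus strand), a gene of copper handling and NF-kB control, is expressed mainly from the maternal copy. Commd1 had 57.0 and 54.8 CPM in the controls, 32.3 in KO 1 and 33.8 in KO 2. It fell by 0.76 on the log2 scale (± 0.09 SE, edgeR adjusted p = 0.010), which is 0.30 below the chromosome median (difference -0.30). With each chromosome centred on its median the call ended (edgeR adjusted p = 0.089). Zrsr1 had 69.3 and 59.4 CPM in the controls, 67.6 in KO 1 and 60.9 in KO 2. Its groups overlapped, and its log2 fold change stood 0.45 above the chromosome median. The surroundings mostly moved with Commd1: Cct4, of the chaperonin CCT (-0.65), and Fam161a, of a ciliary protein (-0.89), fell. B3gnt2, at 35.2 kb, had a value above 0 and was not called (0.66, edgeR adjusted p = 0.117). Of the 18 other genes tested within 1000 kb 11 fell, with a median of -0.68. Over the whole of chromosome 11, 537 of 1328 tested genes fell.

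Sfmbt2 fell to nearly the same level in both KO libraries. This paternally expressed gene of a Polycomb-related protein (chr2:10370510-10595253, plus strand) is needed in the trophoblast lineage and hosts a large microRNA cluster. It had 70.4 and 72.7 CPM in the controls, 24.9 in KO 1 and 25.4 in KO 2. The fall was 2.84-fold (log2 fold change -1.51 ± 0.09 SE, edgeR adjusted p = 0.0041), with a chromosome median of 0.05. Leaving out single libraries gave -1.53 to -1.48, the narrowest such range among the called falls. Within 250 kb Gm13261 (-0.68) and Itih5 (-0.49) were tested and not called. Trophoblast markers were lower in the KO libraries as well (0.38 and 0.572 times the control level in KO 1 and KO 2), and their part in the fall of Sfmbt2 was not tested.

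The stretch before the start of Sfmbt2 (chr2:10370201-10370450, 1 of 2 starts) is printed for comparison with that of Grb10, which also fell. It holds 8 CpGs, reached by 43.0% of all promoters. Over the 29 members found in the table the median was 10 CpGs, with a range of 0 to 40, and over all promoters it was 6. Among the called members, H19, Peg13, Peg10 and Trappc9 were not in the table. Commd1, which fell, had 14 CpGs, and Cd81, which rose, had 16.
Sfmbt2: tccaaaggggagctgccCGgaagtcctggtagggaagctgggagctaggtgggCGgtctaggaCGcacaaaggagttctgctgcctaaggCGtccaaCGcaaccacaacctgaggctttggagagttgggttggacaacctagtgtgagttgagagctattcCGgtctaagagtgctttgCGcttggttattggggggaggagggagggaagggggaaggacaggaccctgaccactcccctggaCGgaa

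Of the 3 paternally expressed members on chromosome 6, Peg10 fell and Sgce and Mest were not called. Peg10 (chr6:4747306-4760517, plus strand), a domesticated retrotransposon gene required for the placenta, shares a promoter region with Sgce (chr6:4674350-4747207, minus strand), the gene of epsilon-sarcoglycan. Peg10 had 743 and 767 CPM in the controls, 332 in KO 1 and 471 in KO 2. The KO libraries lay below the controls and apart from each other, with a log2 fold change of -0.91 ± 0.16 (SE, edgeR adjusted p = 0.020). Sgce had 19.6 and 19.3 CPM in the controls, 14.8 in KO 1 and 15.3 in KO 2, a log2 fold change of -0.37 ± 0.11 (SE, edgeR adjusted p = 0.076). Within 250 kb Casd1 (-0.32), Col1a2 (-0.37) and Ppp1r9a (-0.32) were not called. The GC-content offset left Peg10 at -0.85 and brought Sgce to -0.04 (edgeR adjusted p = 0.886). Mest (chr6:30723547-30748465), which encodes a hydrolase-like membrane protein, had 60.6 and 65.6 CPM in the controls, 33.7 in KO 1 and 59.6 in KO 2. Its KO 2 level was close to the controls, and it was not called (-0.44 ± 0.24 SE, edgeR adjusted p = 0.256). Of its exon bases, 23.1% overlap a gene on the opposite strand.

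The 3 members of the Peg3 domain at chromosome 7 had values below 0, and none of them passed. Peg3, a zinc finger gene of growth and maternal behaviour (chr7:6703892-6730431), had 174 and 165 CPM in the controls, 58.4 in KO 1 and 111 in KO 2. Both KO libraries were lower than both controls, but they differed 1.90-fold, and the log2 fold change was -1.0 ± 0.27 (SE, edgeR adjusted p = 0.055). Leaving out KO 1 gave -0.61 and leaving out KO 2 gave -1.54, and limma-voom called the gene. Usp29, a ubiquitin protease gene that shares the promoter region, had 1.89 and 2.27 CPM in the controls, 1.31 in KO 1 and 1.35 in KO 2 (-0.64, edgeR adjusted p = 0.116). Zim1, a maternally expressed zinc finger gene, had a log2 fold change of -0.29 (edgeR adjusted p = 0.410). The order of the KO libraries, KO 1 below KO 2, held for 29 of the 38 tested members, against 49.6% of all tested genes. Peg3, Peg10, Mest and H19 were among the 29, as were Meg3 and Impact, which were not lower in KO 2. The summed primitive endoderm markers had the same order, and any relation to it was not tested.

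At the Dlk1-Meg3 locus the KO libraries moved in opposite directions, so the group means hid the differences. Meg3, Rian and Mirg are maternally expressed noncoding RNAs that lie in a row on the plus strand from chr12:109541001 to 109749460 and carry microRNAs and small nucleolar RNAs. Dlk1, of a Notch-related membrane protein, and Rtl1, of a retrotransposon-derived placental protein, are paternally expressed. Meg3 had 132 and 136 CPM in the controls, 85.3 in KO 1 and 222 in KO 2. Rian had 131 and 135 CPM in the controls, 72.6 in KO 1 and 156 in KO 2. Mirg had 12.5 and 14.1 CPM in the controls, 8.94 in KO 1 and 27.8 in KO 2. In each of these RNAs KO 1 was below both controls and KO 2 above both.

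The paternally expressed members of the locus did the same at low levels. Dlk1 had 4.08 and 4.37 CPM in the controls, 3.35 in KO 1 and 5.42 in KO 2. Rtl1 had 1.55 and 1.62 CPM in the controls, 0.789 in KO 1 and 3.24 in KO 2. All 5 members were thus lower in KO 1 and higher in KO 2 than both controls, by 1.62-fold to 4.11-fold between the KO libraries. Over both libraries the log2 fold changes ran from -0.22 (Rian) to 0.46 (Mirg), and none was called by edgeR or DESeq2 or had an unadjusted edgeR p under 0.05 (0 of 5). The GC-content offset turned Rian to 0.28 and Dlk1 from 0.05 to -0.04, and limma-voom turned Rtl1 from 0.33 to -0.02, none of them called. Leaving out 1 KO library at a time turned the sign of Meg3 (-0.65 without KO 2), Mirg (-0.57 without KO 2), Rtl1 (-1.0 without KO 2) and Rian (0.23 without KO 1). Such a fit has a lone KO library with no measured spread, so only the values are given. Within 1000 kb 17 other genes were tested and none was called, with a median of 0.23 (2 were higher at an unadjusted edgeR p under 0.05, and DESeq2 called none).

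**Figure D3:**
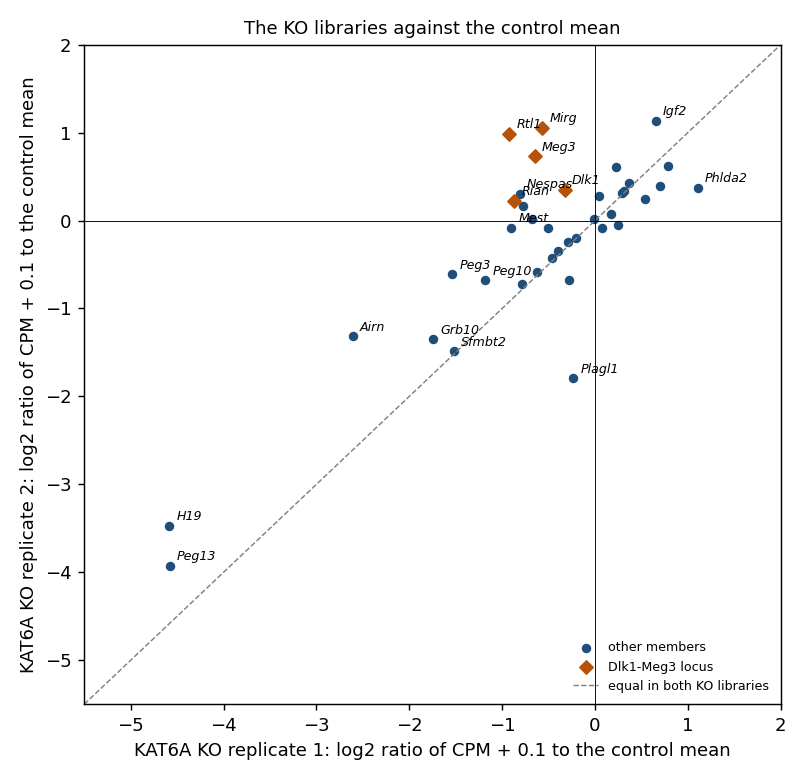
Each member's level in KO 1 (x axis) and KO 2 (y axis) as the log2 ratio of CPM + 0.1 to the control mean, with diamonds for the Dlk1-Meg3 locus and a dashed line where both are equal. The 5 diamonds lie left of 0 and above 0, Plagl1 lies low only in KO 2, and H19, Peg13, Grb10 and Sfmbt2 lie low in both.

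Plagl1 showed the opposite order of the KO libraries. This paternally expressed zinc finger gene, a regulator of other imprinted genes (chr10:13060504-13131694), had 33.8 and 35.4 CPM in the controls, 29.3 in KO 1 and 9.93 in KO 2. KO 1 lay just under the controls and KO 2 far below, and the log2 fold change of -0.81 ± 0.43 (SE) did not pass (edgeR adjusted p = 0.231). Without KO 1 it was -1.80, and without KO 2 it was -0.24.

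In the Kcnq1ot1 cluster of chromosome 7, Cd81 rose slightly and the growth-restraining genes did not pass. Cd81, of a tetraspanin membrane protein at the edge of the cluster (chr7:143052739-143067934), had 276 and 265 CPM in the controls, 332 in KO 1 and 337 in KO 2. It rose by 0.31 ± 0.08 (SE) on the log2 scale, only just past the threshold (edgeR adjusted p = 0.0497), beside a median of 0.15 for chromosome 7. The call ended with each chromosome centred on its median, with no low-count filter and without either control library. Phlda2, which restrains placental growth (chr7:143501545-143503150), had 19.4 and 19.8 CPM in the controls, 42.5 in KO 1 and 25.5 in KO 2. It was higher in both KO libraries but unequally so (0.79 ± 0.23 SE, edgeR adjusted p = 0.067), and DESeq2 called it.

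The remaining members of that cluster were low. Cdkn1c, a cell cycle inhibitor gene, had 4.50 and 3.91 CPM in the controls, 6.18 in KO 1 and 5.02 in KO 2 (0.41, edgeR adjusted p = 0.184). Of the exon bases of Cdkn1c, 30.7% overlap a gene on the opposite strand. Slc22a18, a transporter gene, had 4.73 and 4.18 CPM in the controls, 7.29 in KO 1 and 5.89 in KO 2 (0.57, edgeR adjusted p = 0.090). Kcnq1ot1, the paternally expressed noncoding RNA that silences the cluster, had 3.55 and 4.35 CPM in the controls, 2.27 in KO 1 and 4.44 in KO 2, and its groups overlapped (-0.24, and 0.05 with the GC-content offset). Ascl2, a trophoblast transcription factor gene, also overlapped between the groups (-0.30, edgeR adjusted p = 0.455). The 3 maternally expressed genes Phlda2, Cdkn1c and Slc22a18 therefore had positive values without a call. Of 11 other genes tested within 250 kb of the cluster, Cars, of the cysteine tRNA ligase, rose (0.37, edgeR adjusted p = 0.034).

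The members of the Snrpn-Ube3a domain, the mouse counterpart of the Prader-Willi and Angelman region, were not called. Snrpn, of a splicing protein, had 149 and 159 CPM in the controls, 159 in KO 1 and 187 in KO 2 (0.17 ± 0.10 SE, edgeR adjusted p = 0.30). It shares 27.3% of its exon bases with other gene models on the same strand, so its counts are uncertain. Ube3a (chr7:59228750-59311536), a ubiquitin ligase gene silenced on the paternal copy in neurons, had 113 and 120 CPM in the controls, 95.9 in KO 1 and 72.8 in KO 2. Its KO libraries were below the controls (-0.46 ± 0.14 SE, edgeR adjusted p = 0.070). DESeq2 (-0.46, adjusted p = 0.021) and edgeR without the filter on low counts (adjusted p = 0.014) called Ube3a, and a GC-content offset brought the value to -0.09 (edgeR adjusted p = 0.41). Of its exon bases 27.3% overlap genes on the opposite strand. The intronless genes Ndn (-0.20), Magel2 (0.74, edgeR adjusted p = 0.095) and Mkrn3 (0.11) lie farther along the domain at 1.32 to 9.31 CPM.

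Single genes of 3 further loci kept near their control levels or varied without a call. Impact, of a regulator of translation, had 418 and 401 CPM in the controls, 405 in KO 1 and 414 in KO 2 (0.00 ± 0.08 SE), so its libraries interleaved. Nnat, of a small membrane protein of neurons, had a log2 fold change of 0.33 ± 0.18 (SE, edgeR adjusted p = 0.247). Gnas, of the stimulatory G protein subunit, was counted at 4.02 and 4.45 CPM in the controls, 4.96 in KO 1 and 6.51 in KO 2 (0.43, edgeR adjusted p = 0.183). Its antisense RNA Nespas had 1.86 and 1.75 CPM in the controls, 0.986 in KO 1 and 2.26 in KO 2, on either side of the controls. Of the exon bases 22.0% (Gnas) and 38.5% (Nespas) overlap genes on the other strand, so these counts are uncertain.

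The fitted changes of H19, Peg13, Grb10 and Sfmbt2 lay below those of all tested genes around them, and those of Peg10 and Commd1 did not. Within 1000 kb of the start of H19 there were 25 other tested genes with log2 fold changes from -1.17 to 1.15, all above the -3.93 of H19. Around Peg13 there were 9, from -0.10 to 0.58, of which 3 rose. Around Grb10 6 others ran from -1.40 to 0.09, and around Sfmbt2 6 ran from -1.05 to 0.25. Around Peg10 12 ran from -1.28 to -0.04 with none called by edgeR or DESeq2 (2 were lower at an unadjusted edgeR p under 0.05), so 1 of its neighbours had a lower value than Peg10 itself. No test of these differences was made.

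**Figure D4:**
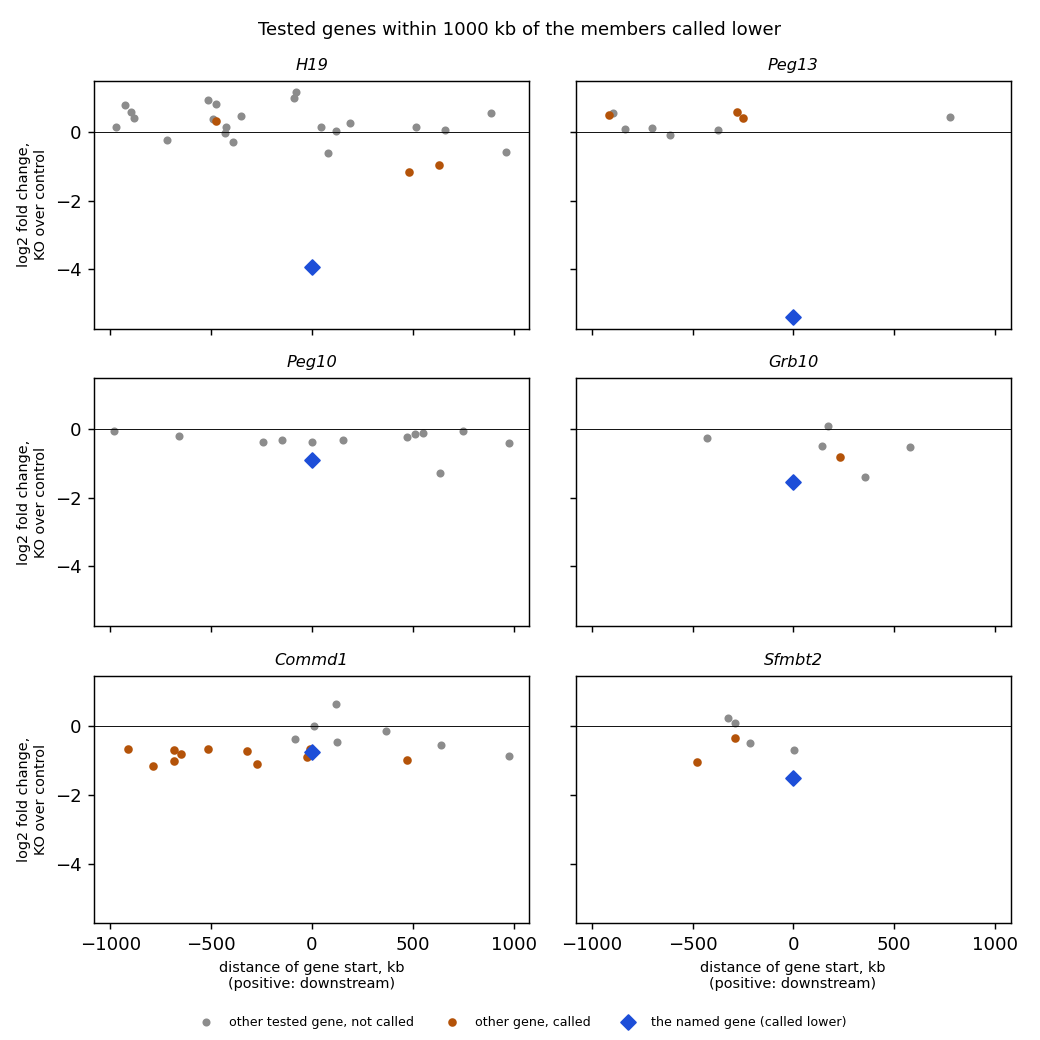
Log2 fold change, KO over control, of the tested genes that start within 1000 kb of each member called lower (diamond), against distance from its start in kb with downstream positive. H19, Peg13, Grb10 and Sfmbt2 lie below all genes around them, while Commd1 lies among 11 called neighbours.

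Genes listed for the same loci but not among the 39 were mostly not called. Of 49 such genes 38 were tested, 2 rose (Chrac1 and Cars) and 3 fell, with a median log2 fold change of 0.00. Among the falls were Xpo1 of chromosome 11, of a nuclear export receptor (-1.11), and Atp10a, of a lipid flippase (-0.98). Of 17 tested imprinted genes of other loci, Bcl2l1, a survival gene, rose (0.39), and Platr20, a noncoding RNA of chromosome 11, fell (-1.01), with a median of -0.09. The shares called among all tested genes are the 5.76% and 8.57% given above.

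Of 30 factors that set, protect or remove imprints, 2 rose and 3 fell (median 0.09). These numbers are near the shares among all tested genes, 5.76% higher and 8.57% lower. Zfp57, the zinc finger protein that binds methylated imprinting control regions, had 342 and 364 CPM in the controls, 368 in KO 1 and 372 in KO 2 (0.07, edgeR adjusted p = 0.591). Its partner Trim28 (0.28, edgeR adjusted p = 0.158), the maintenance methyltransferase gene Dnmt1 (0.24, edgeR adjusted p = 0.112) and Ctcf (0.04, edgeR adjusted p = 0.736) were not called either. Dppa3, which protects methylation in the early embryo, fell from 9.37 and 9.21 CPM to 1.68 in KO 1 and 1.56 in KO 2 (-2.52 ± 0.18 SE, edgeR adjusted p = 0.0050). Suz12, a Polycomb gene of chromosome 11 (-1.21, beside a chromosome median of -0.45), and Atrx, a chromatin remodeller gene (-0.59), fell as well. Tet1, a methylcytosine oxidase gene (0.42), and Daxx, a histone chaperone gene (0.42), rose.

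The authors' deposited table, made with their own comparison, lists 37 of the members with an adjusted p. There 2 members in the authors' deposited table were higher at an adjusted p under 0.05 (Trappc9 and Phlda2) and 7 were lower (H19, Peg13, Peg10, Grb10, Commd1, Ube3a and Sfmbt2), where 6.94% of 14690 genes were higher and 10.1% lower. Its values for H19 (-1.95) and Peg13 (-2.23) in the authors' deposited table are nearer 0 than the edgeR estimates. They are also nearer 0 than those of the DESeq2 alternative run here on the same counts (-3.93 for H19 and -5.47 for Peg13). Those for Grb10 (-1.41), Sfmbt2 (-1.42) and Peg10 (-0.84) in the authors' deposited table differ from the edgeR estimates by little. Cd81 had an adjusted p of 0.0527 in the authors' deposited table.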

How the data were processed

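RNA was extracted with DNase digestion and polyadenylated RNA was sequenced with a stranded kit, per the labels' protocols. The authors deposited whole-number read counts per gene symbol for each library, made with featureCounts and tested by them with DESeq2, per the submitters' processing notes (no versions). The aligner, build, annotation and use of strand were not given in the sources used here. The authors' deposited comparison lacks a header, and from values and order it was read as a mean normalized count (signal), a log2 fold change and its error, a Wald score, a p-value and an adjusted p-value.

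Counts were tested in R 4.3.3 with edgeR 4.0.16 (filterByExpr, TMM factors 0.992 to 1.01, robust quasi-likelihood test on group alone, Benjamini-Hochberg adjustment over all tested genes, threshold 0.05). CPM values use the scaled library sizes. Replicates differed by more than sampling noise (mean chi-square per gene 3.70 for the controls, 34.4 for the KO libraries). Promoters came from RefSeq, and positions and exon overlaps from GENCODE M21 (GRCm38), which holds 97.9% of the symbols. The procedure was tested on simulated data.

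The members, loci and lists were chosen with earlier results of these data known. All 39 members are named. Others named are up to 4 called genes per list and direction, Zfp57, Trim28, Dnmt1, Dppa3 and Ctcf, and at most 4 neighbours within 250 kb of a called member. A gene that this rule takes in is not reported here. Alternatives were RLE, upper-quartile or no composition scaling, DESeq2 1.42.0, limma-voom (limma 3.58.1), no filter or at least 1 CPM in at least 2 libraries, a GC-content offset, the replicate number as a block, both together, chromosome centring (each chromosome's own median set to 0) and single libraries left out, where the remaining library of that group is taken to vary as the other group does. Tables and plots were made in Python 3.11.15 (pandas 2.3.3, matplotlib 3.10.9, scipy 1.17.1).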

Additional observations from a re-analysis of the deposited data

How the results depend on the processing

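Peg13, Peg10, Grb10 and Sfmbt2 kept their calls in all 15 alternatives, H19 in 13, Commd1 in 14, Cd81 in 11 and Trappc9 in 10. The members called higher, 2 in the reported fit, numbered 0 with chromosome centring, 1 with the GC-content offset, 1 with that offset and the replicate block, 4 with the replicate block alone and 1 to 12 with a library left out. The members called lower, 6 in the reported fit, numbered 7 to 20 with a library left out and 5 to 8 otherwise. Over all genes, 928 higher and 1381 lower became 1613 and 2147 with the replicate block, 284 to 4037 and 660 to 4387 with a library left out. The large counts are those without a KO library, where the lone KO library is given the spread of the controls: 12 members higher and 12 lower without KO 1, 7 and 20 without KO 2. Of all genes called, 40.2% were higher in the reported fit, 29.9% and 30.1% without control 1 and control 2. With a library left out, Meg3 ran from -0.65 to 0.73, Rian from -0.87 to 0.23, Mirg from -0.57 to 1.06 and Rtl1 from -1.0 to 1.03. Deviations of same-numbered libraries correlated at 0.0945 with 2 pairs, so the numbers were not taken to pair the samples; with the block the call of H19 ended (edgeR adjusted p = 0.073) and Igf2, Airn, Ube3a and Phlda2 were called. Depth limits Peg13, Airn and Kcnk9, with 0 to 4 counts in each KO library.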

Other observations

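Some genes near the imprinted loci were picked out after their values were seen. Snhg14, the long host RNA that runs antisense to Ube3a, had 77.5 and 91.9 CPM in the controls, 48.5 in KO 1 and 35.9 in KO 2 (log2 fold change -1.0, edgeR adjusted p = 0.017). It shares sequence with Ube3a on the opposite strand, and both had lower levels in the KO libraries. Dusp8, a phosphatase gene, and Brsk2, a kinase gene, lie downstream of H19 at 482 and 628 kb, and fell by 1.17 and 0.98 on the log2 scale. Aurkc, a meiotic kinase gene 28.1 kb outside the Peg3 domain, rose at a low level (0.929 and 1.30 CPM in the controls, 3.58 in KO 1, 2.26 in KO 2). Near Gnas, Nelfcd and Atp5e rose by 0.38 each. Gata3, a trophoblast transcription factor gene that starts upstream of Sfmbt2, fell by 1.05 on the log2 scale.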
